A study of Mus musculus with 48 samples.

Results

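The Tfap2b-positive neurons of the mouse hypothalamus at embryonic stage E18.5 were defined by at least 2 UMIs (unique molecular identifiers, each counting 1 captured transcript) of *Tfap2b* in a cell that also held at least 3 of the 6 neuron genes *Stmn2*, *Tubb3*, *Snap25*, *Syt1*, *Elavl4* and *Rbfox3*. There were 411 such cells among 14121, of which 401 came from 9 *Eed-cKO* embryos and 10 from 6 control embryos. Control embryos carried loxP-flanked *Eed* on both chromosomes (*Eed fl/fl*), and *Eed-cKO* embryos carried in addition 1 copy of *Sox1-Cre*, a recombinase driven in the early neural tube, so that both genotypes shared the floxed alleles. No prefix of an embryo name was shared between the genotypes. The labels do not say what a prefix stands for, and whatever it marks cannot be told apart from genotype.

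*Tfap2b* encodes AP-2β, a transcription factor of the AP-2 family that binds GC-rich palindromes as a dimer. In the developing nervous system AP-2 factors are known from neural crest, from inhibitory interneurons of the spinal cord, hindbrain and cerebellum, and from parts of the midbrain. *Eed* is a core subunit of polycomb repressive complex 2 (PRC2), which places the repressive mark H3K27me3 on developmental regulators such as the Hox genes that specify the hindbrain and spinal cord and are silent in the forebrain.

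*Gata3* was among 90 genes, described below, that passed the test and stood above the other neurons in all 9 *Eed-cKO* embryos. *Lamp5* is a marker proposed with values known, so its place among these genes is a description. Promoter windows are shown for *Lamp5* and *Gata3* and for the gene that defines the cells. They run from 250 bases before to 50 bases after the transcription start (RefSeq, GRCm38.p6), 5′ to 3′ on the strand of the gene, and capitals mark matches to GCCNNNGGC, the core AP-2 palindrome, which reads the same on both strands.
Tfap2b, chr1:19211804-19212103, plus strand: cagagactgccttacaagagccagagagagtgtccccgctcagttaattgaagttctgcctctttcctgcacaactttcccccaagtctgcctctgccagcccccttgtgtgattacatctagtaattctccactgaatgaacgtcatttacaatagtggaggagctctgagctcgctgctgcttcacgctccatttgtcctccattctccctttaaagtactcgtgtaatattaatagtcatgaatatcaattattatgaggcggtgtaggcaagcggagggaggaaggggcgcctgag
Lamp5, chr2:136052089-136052388, plus strand: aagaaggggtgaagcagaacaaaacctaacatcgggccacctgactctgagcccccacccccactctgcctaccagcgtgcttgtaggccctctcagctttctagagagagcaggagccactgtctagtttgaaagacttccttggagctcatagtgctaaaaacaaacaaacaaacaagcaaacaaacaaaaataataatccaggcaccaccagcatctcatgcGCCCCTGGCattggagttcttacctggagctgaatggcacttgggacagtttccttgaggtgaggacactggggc
Gata3, chr2:9878551-9878850, minus strand: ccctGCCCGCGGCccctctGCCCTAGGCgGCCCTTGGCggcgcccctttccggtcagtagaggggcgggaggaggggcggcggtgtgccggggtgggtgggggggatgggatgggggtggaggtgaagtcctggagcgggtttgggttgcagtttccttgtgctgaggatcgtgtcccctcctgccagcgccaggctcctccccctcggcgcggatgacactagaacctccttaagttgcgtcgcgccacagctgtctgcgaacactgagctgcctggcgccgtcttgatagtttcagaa
The *Tfap2b* window held 0 matches, this *Lamp5* window 1 and the *Gata3* window 3, and a second *Lamp5* window at a start further downstream held 0. Of all 32851 windows 16.6% held at least 1 match. Of the 12 largest rises in Tfap2b-positive neurons given below, 8 genes had 10 windows, of which 5 held a match, and of the 12 largest falls 10 genes had 12 windows, of which 3 did. Among the rises not shown, the windows of *Barx1*, *Msx1* and *Hoxd10* held 0 matches, that of *Hoxa11os* 2, that of *Rpp25* 1 and those of *Lmo1* 0 and 1. A match describes the letters of the window and is not a binding site.

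The data were UMI counts of 16510 genes from 48 droplet libraries, 22 of control and 26 of *Eed-cKO*, with 5363119 to 7487417 UMIs per control embryo and 658175 to 6299181 per *Eed-cKO* embryo. Neurons numbered 5898 in control and 5224 in *Eed-cKO*. A barcode was shared by more than 1 library in 101 cases, which touched 8 Tfap2b-positive neurons. Among the neurons outside the Tfap2b-positive class, *Eed* itself was at 17.2 to 26.8 CPM (UMIs of a gene per 1000000 UMIs of the sum) in *Eed-cKO* embryos, with a median of 23.1, and at 27.5 to 32.8 with a median of 31.8 in control embryos. The genotypes did not overlap (log2 fold change −0.44 ± 0.10 SE, edgeR's quasi-likelihood test, adjusted p = 3.83e-03), although 3′ tags outside the deleted exons do not measure the deletion.

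The cells were proposed for their abundance in the mutant, so their numbers are a description without a test. Tfap2b-positive neurons made up 0.107% to 0.253% of the neurons of a control embryo, with a mean of 0.173% ± 0.0611 (SD, n = 6), which was 1 or 2 cells in each. In *Eed-cKO* they made up 3.89%, 6.90% and 14.3% of neurons in the lowest, the median and the highest embryo, with a mean of 7.81% ± 3.04 (SD, n = 9), or 11 to 74 cells an embryo. The genotypes did not overlap, and the lowest and the highest *Eed-cKO* embryo, F502_E9 and F502_E6, carried the same name prefix. All 26 *Eed-cKO* libraries held at least 1 such neuron, at 3.38% to 15.7% of their neurons, against 7 of the 22 control libraries, at 0% to 0.858%. In *Eed-cKO* the 5 female embryos had a mean share of 7.28% (3.89% to 10.5%) and the 4 male embryos one of 8.48% (5.44% to 14.3%), ranges that overlapped.

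**Figure D1:**
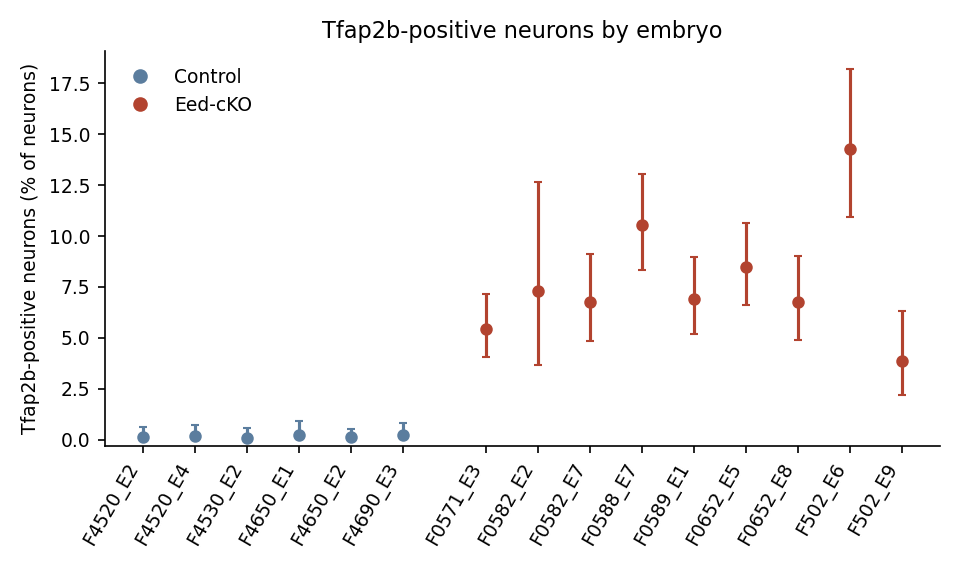
Tfap2b-positive neurons as a percentage of the neurons of each embryo (points, vertical axis), with exact 95% binomial intervals that cover counting error only, for 6 control and 9 Eed-cKO embryos (horizontal axis). The control embryos lie between 0.107% and 0.253% and the Eed-cKO embryos between 3.89% and 14.3%.

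The rule asked for 2 UMIs, and many *Eed-cKO* neurons lay near it. Of the 401 Tfap2b-positive neurons 95 held exactly 2 UMIs, 58 held 3, 171 held 4 to 9 and 77 held 10 or more, with a median of 5 and a maximum of 38. A further 215 *Eed-cKO* neurons held exactly 1 UMI of *Tfap2b*, and 1 control neuron did. Just inside the rule, at 2 UMIs, 51.6% of neurons had a UMI of *Lamp5*, 57.9% of *Hoxc10* and 44.2% of *Gata3*, and just outside it, at 1 UMI, the values were 31.2%, 38.6% and 30.7%. The neurons with 1 UMI thus lay between those with 2 and those with 0 UMIs, where 10.3% had *Lamp5*, 16.5% *Hoxc10* and 9.5% *Gata3*. The median depths of these classes were close, at 4982 UMIs per cell with 2, 5286 with 1 and 4788.5 with 0.

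**Figure D2:**
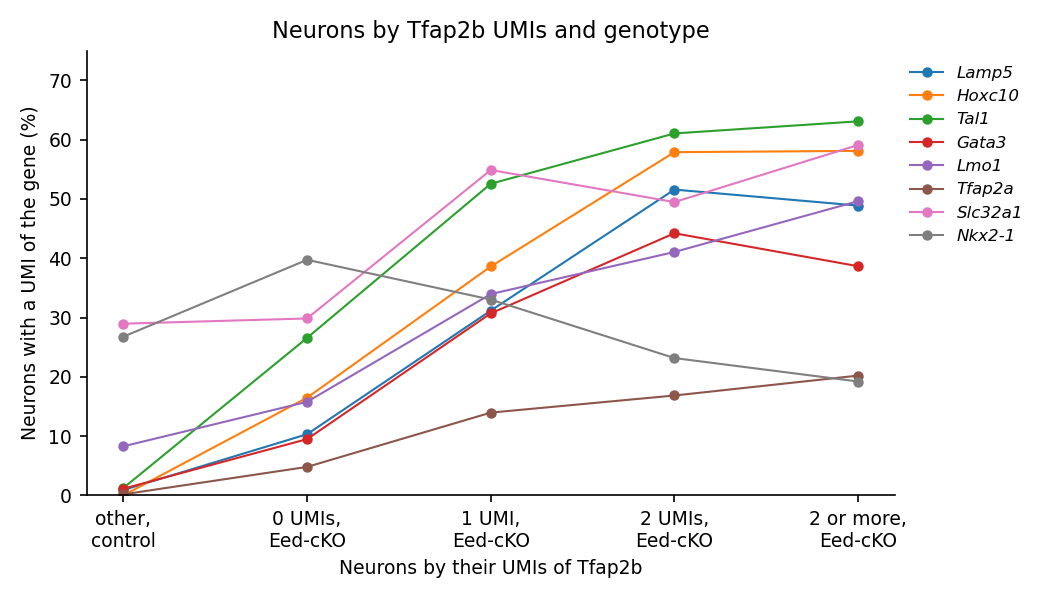
Percentage of neurons with at least 1 UMI of each of 8 genes (lines, vertical axis), by genotype and by the number of Tfap2b UMIs in the cell (horizontal axis). Lamp5, Hoxc10, Tal1, Gata3, Lmo1 and Tfap2a climb from the Eed-cKO neurons with 0 UMIs to those with 2 or more, while Nkx2-1 falls from 39.7% to 19.2%.

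The other 7 marker genes that came with the cells were set against the other neurons of the same *Eed-cKO* embryos, as a description, since they were proposed with values known. Of these, 5 stood above the other neurons in at least 8 of 9 embryos. *Lamp5*, a membrane protein of the LAMP family that marks a class of cortical interneurons, was at 121, 215 and 453 CPM in the lowest, median and highest embryo of Tfap2b-positive neurons and at 19.6, 36.9 and 53.5 CPM in the other neurons, groups that did not overlap (log2 fold change 2.5 ± 0.12 SE, n = 9). *Hoxc10*, a posterior Hox gene, was at 173, 218 and 310 CPM against 44.0, 62.0 and 87.2 CPM, again without overlap (1.78 ± 0.11). *St18*, a zinc finger factor, was at 71.8, 108 and 227 CPM against 40.5, 48.2 and 62.9 CPM, also without overlap (1.14 ± 0.13). The remaining 4 overlapped between the classes. *Vstm2l* was higher in 9 of 9 embryos (0.86 ± 0.07), the homeobox gene *Dmbx1* in 8 (0.86 ± 0.23), and the retinoic acid binding protein gene *Crabp1* in 7 (1.15 ± 0.37, from 36.7 to 394 CPM against 45.8 to 105 CPM). *Pnoc*, which encodes the neuropeptide precursor of nociceptin, was at 78.8, 133 and 227 CPM against 103, 119 and 168 CPM (0.13 ± 0.11), higher in 7 of 9 embryos. A UMI of it was found in 34.7% of Tfap2b-positive neurons, in 29.8% of the other neurons and, among these, in 41.4% of the neurons with 1 UMI of *Tfap2b*.

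In single cells the markers were partial. A UMI of *Vstm2l* was found in 81.8% of Tfap2b-positive *Eed-cKO* neurons, of *Hoxc10* in 58.1%, of *Lamp5* in 48.9%, of *St18* in 31.4%, of *Crabp1* in 28.9% and of *Dmbx1* in 7.5%. The background of free RNA was estimated from 437 *Eed-cKO* cells that failed the neuron rule. They held at least 3 markers of endothelium, microglia or fibroblasts, and may also express a gene themselves. The shares there were 3.0% for *Vstm2l*, 1.8% for *Hoxc10* and 1.1% for *Lamp5*. Their median depth was 3816 UMIs a cell, against 5442 in the Tfap2b-positive neurons. The share of Tfap2b-positive neurons with *Lamp5* ran from 18.2% to 73.3% among the 9 embryos, and that with *Hoxc10* from 43.6% to 81.8%.

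The 10 Tfap2b-positive neurons of the control embryos, from 7 libraries, are described without a test, because a test was to be run only on embryos with at least 5 such neurons. They held 4 to 46 UMIs of *Tfap2b*, with a median of 17, at a median of 9416.5 UMIs a cell. *Lamp5*, *Hoxc10*, *St18*, *Crabp1*, *Dmbx1*, *Gata2*, *Gata3*, *Tal1*, *Pax2*, *Gad1* and *Gad2* had 0 UMIs in all 10 cells, which allows a level of up to 36.9 CPM over their summed counts (exact Poisson, counting error only). A cell without a UMI may still express the gene. Other genes of the class were present. *Vstm2l* had a UMI in 6 of 10 cells, at 120 CPM (62.1 to 210), and *Pnoc* in 3 of 10, at 50.1 CPM (16.3 to 117). *Tfap2a* had a UMI in 2 of 10, at 110 CPM (55.0 to 197), with up to 9 UMIs in a cell. *Slc17a6*, the vesicular glutamate transporter, had a UMI in 10 of 10 cells, at 781 CPM (617 to 974), and *Slc32a1*, the vesicular GABA transporter, in 2 of 10 with 1 UMI each. *Lhx9*, a LIM homeobox factor of diencephalic and midbrain glutamatergic neurons, was found in 6 of 10 cells at 320 CPM (219 to 452) and in 7.1% of the other control neurons. The forebrain and midbrain factor *Otx2* was found in 3 of 10, and in 3.7% of the other control neurons. None of the 34 Hox genes in the table had a UMI in these 10 cells.

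Within the *Eed-cKO* embryos, summed counts of the Tfap2b-positive neurons were compared with those of the other neurons of the same embryo, with the embryo as a block. Of 12552 genes, 337 were higher (2.68%) and 358 lower (2.85%) at an adjusted p under 0.05, and 90 and 159 of these had the same sign in all 9 embryos. The balance of rises and falls moved with the method, from 261 and 1391 with libraries as replicates to 303 and 183 in DESeq2 and 248 and 64 in limma-voom with TREAT, which tests against a log2 fold change of 0.18 rather than 0. The median log2 fold change over all genes was −0.04. These counts include marker genes that came with the cells. The 12 largest rises with the same sign in all 9 embryos were those of *Lamp5*, *Pitx1*, *Lmo1*, *Gata3*, *Hoxa11os*, *Rpp25*, *Barx1*, *Msx1*, *Hoxc13*, *Hoxb3*, *Hoxc10* and *Hoxd10*. Among them *Lamp5* and *Hoxc10* are markers proposed with values known, and their rises are a description. The 12 largest such falls were those of *Trh*, *Scgn*, *Gsx1*, *Setdb2*, *Apold1*, *Cpne9*, *Dlx1as*, *Cited1*, *Nts*, *Kcna5*, *Lpl* and *Dcdc2a*. Of the genes named for this comparison or called in its lists, *Apold1*, *Cpne9*, *Dcdc2a*, *Lpl*, *Scgn*, *Setdb2*, *Aqp4*, *Dmbx1*, *Gabra2*, *Gabrb2*, *Gal*, *Ghrh*, *Hes5*, *Hoxa3*, *Hoxb2*, *Hoxd9*, *Hoxd11*, *Lhx9*, *Neurod1*, *Nlgn1*, *Pou4f1*, *Sall3*, *Sim1*, *Skor1*, *Slc1a3*, *Sp9*, *Top2a*, *Ttr* and *Vip* lost their call when 1 or another embryo was left out.

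Apart from *Lamp5*, the largest rise was that of *Pitx1*, a homeobox factor of the hindlimb and pituitary, at 17.3, 25.9 and 62.0 CPM against 2.61, 5.30 and 8.72 CPM (log2 fold change 2.48 ± 0.33 SE, adjusted p = 1.39e-11). It rested on 64 UMIs in 44 cells of the class and kept its call in 22 of 23 alternatives. Annotated exons of other genes lie over those of *Pitx1* on both strands, so its reads cannot be fully told apart from theirs. *Lmo1*, a LIM-only transcriptional cofactor, was at 134, 236 and 416 CPM against 46.3, 53.3 and 86.6 CPM (2.09 ± 0.11, adjusted p = 2.72e-81). Neither gene overlapped between the classes. *Rpp25*, a subunit of RNase P, rose from a median of 14.2 to 56.6 CPM without overlap (2.00 ± 0.22). *Barx1*, a homeobox factor of the branchial arches, rose from a median of 8.51 to 34.5 CPM (1.89 ± 0.29), and *Msx1*, of the dorsal neural tube, from 8.72 to 21.6 CPM (1.88 ± 0.29), both without overlap.

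Of 8 tested midbrain and hindbrain factors 6 rose and 0 fell, with a median log2 fold change of 1.29, and this count includes the marker *Dmbx1*. *Gata3*, a zinc finger factor of such GABAergic neurons and of spinal V2b neurons, was at 85.7, 220 and 371 CPM against 36.4, 48.8 and 69.8 CPM (2.05 ± 0.13, adjusted p = 8.32e-29), without overlap. *Tal1*, its partner, was at 124, 218 and 302 CPM against 80.2, 91.8 and 127 CPM (1.24 ± 0.10, adjusted p = 5.43e-33), higher in 9 of 9 embryos with the lowest sum just inside the range of the other neurons. *Gata2* (1.35 ± 0.32) and the midbrain to hindbrain boundary factors *En1* (1.53 ± 0.26) and *En2* (1.67 ± 0.32) were higher in 8 of 9 embryos each, and the lowest embryo had 0 UMIs. Annotated exons overlap those of *Gata3* on both strands, so its reads cannot be fully told apart from those of its neighbours. Of the 8 factors 3 rose in cells with a UMI of *Slc32a1* (median 0.67), 2 in cells with UMIs of both vesicular transporters (0.49), 4 in cells thinned at random to 2000 UMIs each (0.94) and 2 in neurons with exactly 2 UMIs of *Tfap2b* (1.02). Over all genes tested in these fits, in the same order, 99 of 13328, 35 of 12820, 150 of 13101 and 28 of 11937 rose.

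*Gata3* was found in 38.7% of Tfap2b-positive neurons, with 26.7% to 49.1% among embryos, and *Tal1* in 63.1%, with 36.4% to 75.7%. The other *Eed-cKO* neurons reached 7.79% to 14.9% and 20.7% to 36.8%. In the non-neuronal cells the share was 5.0% for *Gata3* and 9.6% for *Tal1*, which may include expression by these cells themselves. The ranges over embryos did not overlap for *Gata3*, and for *Tal1* they overlapped by the lowest embryo of the class.

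**Figure D3:**
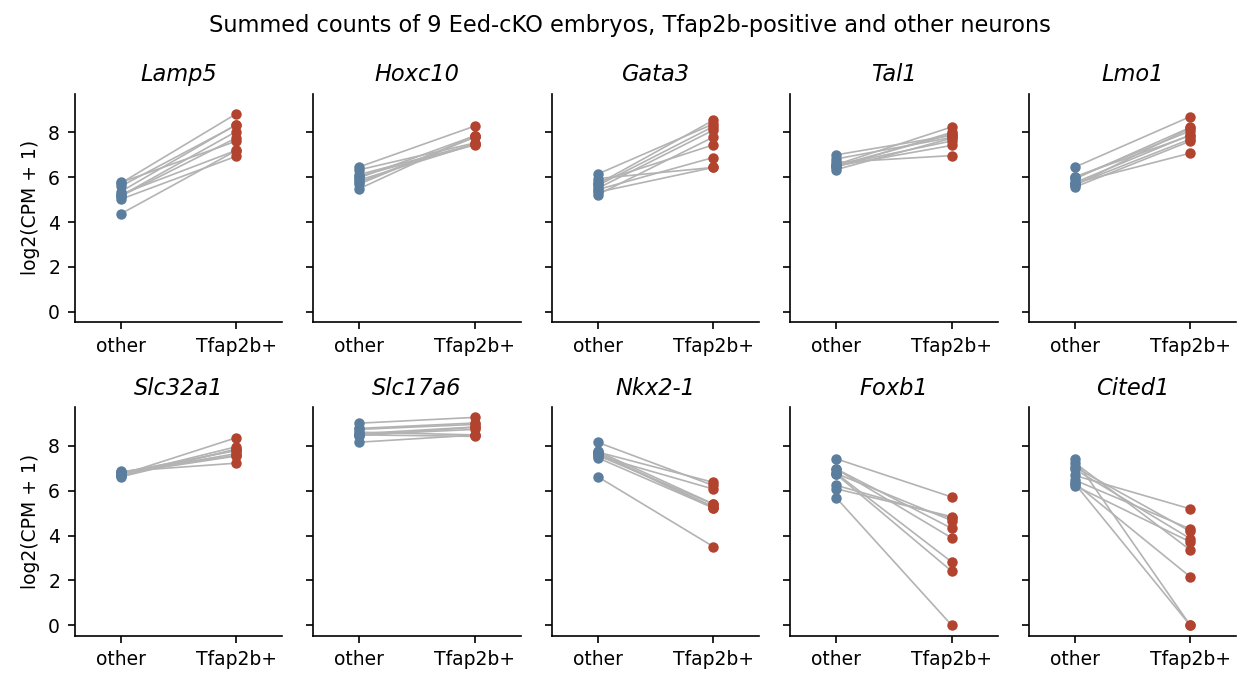
Level of 10 genes, as log2(CPM + 1) of counts summed per embryo (vertical axes), in the other neurons and in the Tfap2b-positive neurons of 9 Eed-cKO embryos (points, joined within an embryo). The lines climb in all 9 embryos for Lamp5, Hoxc10, Gata3, Tal1, Lmo1 and Slc32a1, descend in all 9 for Nkx2-1, Foxb1 and Cited1, and climb in 7 for Slc17a6.

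Of 28 tested Hox genes 22 rose and 0 fell, with a median log2 fold change of 1.47, *Hoxc10* included. The 6 that did not pass the test, *Hoxa4*, *Hoxb4*, *Hoxb6*, *Hoxc4*, *Hoxd3* and *Hoxd13*, had fold changes above 0. Without the gene filter 34 were tested and 21 rose, and 19 of 28 rose without F0588_E7 and likewise without F502_E6. *Hoxc13*, which patterns the tail end of the body axis, was at 108, 149 and 285 CPM against 32.2, 48.0 and 61.4 CPM (1.87 ± 0.12, adjusted p = 1.45e-48), without overlap. *Hoxd10*, a gene of lumbar motor neurons, was at 50.9, 84.1 and 142 CPM against 20.3, 21.7 and 43.1 CPM (1.78 ± 0.16, adjusted p = 1.34e-24), also without overlap. The anterior gene *Hoxb3*, of the hindbrain, was at 18.51, 61.2 and 83.2 CPM against 8.62, 13.1 and 26.1 CPM (1.85 ± 0.22) with overlap. Exons of *Hoxc10* and *Hoxc5*, and of *Hoxd4* and *Hoxd3*, overlap on the same strand, and *Hoxa11* overlaps its antisense gene *Hoxa11os* (2.02 ± 0.40), so these values share reads to an unknown degree. Of the Hox genes 9 of 29 tested rose when both classes were limited to cells with a UMI of *Slc32a1* (median 0.78), 5 of 28 when limited to cells with UMIs of both transporters (0.61), and 8 of 26 when the class was limited to neurons with exactly 2 UMIs of *Tfap2b* (1.38). Over all genes tested in these fits, in the same order, 99 of 13328, 35 of 12820 and 28 of 11937 rose.

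**Figure D4:**
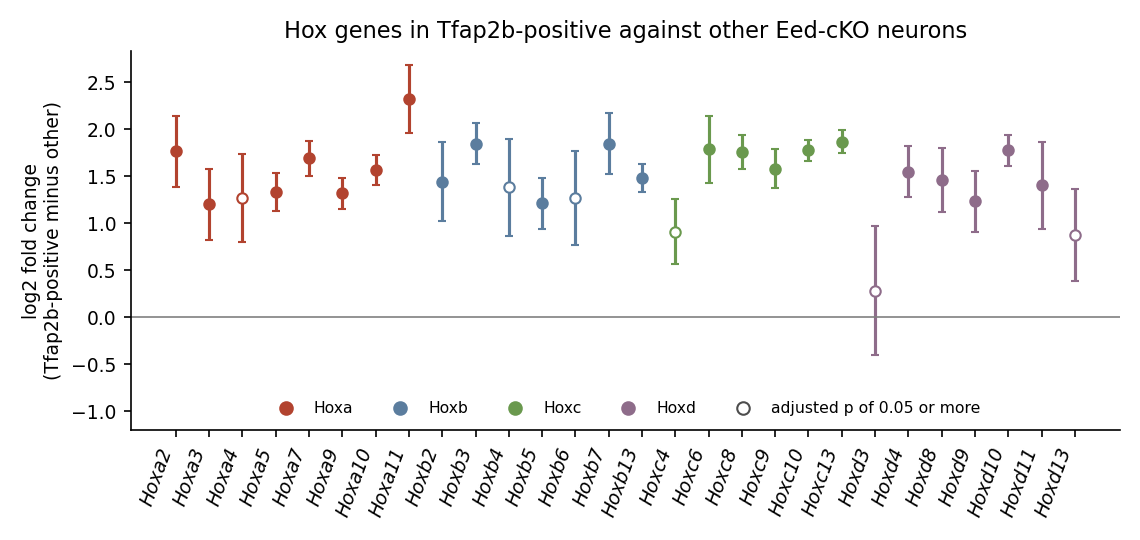
Log2 fold change with SE (vertical axis) of 28 Hox genes (horizontal axis, coloured by cluster) between Tfap2b-positive and other neurons of 9 Eed-cKO embryos. Filled points mark the 22 genes past an adjusted p of 0.05, and all 28 points lie above 0.

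Cell by cell, 378 of 401 Tfap2b-positive *Eed-cKO* neurons held a UMI of at least 1 Hox gene (94.3%, from 87.9% to 100% among embryos), with a median of 5 Hox genes and up to 14. Of the other *Eed-cKO* neurons 43.2% did (32.1% to 59.6%). The summed Hox level was 1263 CPM in the former and 415 CPM in the latter. In control neurons outside the class, 6 of 5888 held a Hox UMI (0.102%).

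Of the regulators known from AP-2-positive inhibitory neurons of the spinal cord and hindbrain, *Tfap2a* and *Pax2* rose. *Tfap2a*, the closest relative of *Tfap2b*, was at 0, 60.4 and 103 CPM against 10.9, 14.7 and 18 CPM (1.99 ± 0.21, adjusted p = 8.48e-19), higher in 8 of 9 embryos, and 20.2% of Tfap2b-positive neurons had a UMI of it against 4.8% of the *Eed-cKO* neurons without *Tfap2b*. *Pax2*, a paired-box factor of dorsal spinal inhibitory neurons, was at 12.2, 18.6 and 48.6 CPM against 4.07, 5.12 and 8.64 CPM (1.66 ± 0.34, adjusted p = 7.03e-05), without overlap, and 8.7% of Tfap2b-positive neurons had a UMI. *Pax8* (0.34, adjusted p = 0.841) and *Lhx5* (0.33, adjusted p = 0.478) did not pass the test. Of the 9 tested spinal and hindbrain inhibitory factors 2 rose, *Pax2* and *Skor1* (1.5, higher in 5 of 9 embryos), and the zinc finger gene *Sall3* fell (−0.82), with a median over the list of 0.33. Among 8 excitatory factors of the same regions *Pou4f1* (1.16) and *Lhx9* (0.77) rose and *Barhl1* (−1.22), *Barhl2* (−1.32) and *Isl1* (−0.60) fell, with a median of 0.03.

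Of 26 tested hypothalamic and forebrain factors 5 rose and 5 fell, with a median of −0.16. *Nkx2-1*, the homeobox factor of the ventral hypothalamus, was at 10.4, 41.4 and 82.0 CPM in Tfap2b-positive neurons and at 97.6, 203 and 285 CPM in the other neurons, so the classes did not overlap (−2.0 ± 0.13, adjusted p = 3.03e-51). *Foxb1*, a forkhead factor of the mammillary region, was at 0, 19 and 51.7 CPM against 50.2, 108 and 170 CPM (−2.17 ± 0.17, adjusted p = 9.92e-33), lower in 9 of 9. A UMI of *Nkx2-1* was found in 19.2% of Tfap2b-positive *Eed-cKO* neurons, in 39.7% of *Eed-cKO* neurons without *Tfap2b* and in 26.8% of the other control neurons. *Fezf1* (−1.56), *Tbx3* (−1.0) and *Sim1* (−0.59) were the others that fell. *Meis2*, a cofactor of Hox proteins that is also expressed in the forebrain, was at 160, 306 and 350 CPM against 100, 126 and 161 CPM (1.19 ± 0.09, adjusted p = 1.96e-37), and *Nkx2-2* (1.51), *Lhx8* (1.5), *Sp9* (0.86) and *Six6* (0.79) rose with it. *Cited1*, a transcriptional coactivator, was at 0, 12.2 and 35.6 CPM against 73.8, 102 and 168 CPM (−2.62 ± 0.19, adjusted p = 5.01e-41), without overlap.

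Of 23 tested neuropeptide genes 7 fell and 1 rose, with a median of −0.62. *Trh*, which encodes thyrotropin-releasing hormone, had 4 UMIs in all Tfap2b-positive neurons and 598 in 216 of the other neurons (0, 0 and 4.32 CPM against 10.2, 24 and 33.1 CPM, −3.70 ± 0.50, adjusted p = 2.15e-11). Neurotensin (*Nts*) was at 0, 5.32 and 27.7 CPM against 15.3, 71.1 and 146 CPM (−2.58 ± 0.22, adjusted p = 1.01e-29). *Avp*, the gene of vasopressin, had 18 UMIs against 6342 (−5.09), but 22.8% of the latter lay in 1 cell. *Cck* (−2.14), *Tac2* (−2.47) and *Gal* (−0.50) were higher in 0 or 1 of 9 embryos. *Tac2* had 5 UMIs against 348, of which 31.3% lay in 1 cell. Direction and call were kept in 21 of 23 alternatives for *Cck*, 12 of 18 for *Tac2* and 6 of 23 for *Gal*. *Ghrh* passed the test as a fall (−1.74) but was higher in 3 of 9 embryos, and *Vip* as a rise (1.87) on 14 UMIs, higher in 5 of 9. The other large falls were of genes with 1 to 3 UMIs in the Tfap2b-positive neurons, namely *Scgn*, *Gsx1*, *Setdb2*, *Apold1*, *Cpne9*, *Dlx1as*, *Kcna5*, *Lpl* and *Dcdc2a*, against 106 to 258 UMIs in the other neurons.

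Of 9 interneuron markers *Reln* (0.58) rose, while the calcium-binding protein genes *Calb1* (−1.16) and *Calb2* (−1.62) and *Cck* fell. *Lamp5*, *Vstm2l* and *St18* are also on this list. They came with the cells and were proposed with values known, so their rises are a description. The cyclin-dependent kinase inhibitor genes *Cdkn1a* (0.49) and *Cdkn2b* (1.24) rose among 7 tested, with a median of 0.07. None of the 9 PRC2 genes tested passed in edgeR's quasi-likelihood test, *Eed* among them (0.21, adjusted p = 0.754), and their median was −0.06. Of 9 retinoid genes the retinoic acid hydroxylase *Cyp26b1* (1.49) rose. The immature neuron genes *Dcx* (0.26) and *Igfbpl1* (0.42) rose and *Nhlh2* (−1.39) and *Neurod1* (−0.69) fell among 7. Of 13 receptor subunits the glycine receptor gene *Glra2* (0.78) rose and the GABA-A receptor genes *Gabra2*, *Gabra5*, *Gabrb1* and *Gabrb2* fell (−0.37 to −1.12), and of 11 synapse genes *Nrxn3* (0.77) and *Nlgn1* (0.50) rose.

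Markers of other cell types were summed in both classes. The astrocyte and progenitor markers were at 24 to 220 CPM in Tfap2b-positive neurons and 93.9 to 338 CPM in other neurons, with 3 of 5 tested genes (*Aqp4*, *Hes5* and *Slc1a3*) lower in the fit with all 9 embryos, and the cycling markers at 0 to 20.4 CPM against 2.13 to 58.5 CPM, with *Mki67* at 0 in the class. Microglia markers were at 0 to 48.0 CPM against 0.568 to 34.1 CPM, with *Cx3cr1* at 0, and endothelial markers at 0 to 64.1 CPM against 4.40 to 38.8 CPM. Pituitary markers, among which *Pitx1* was called, were at 17.6 to 189 CPM against 15.7 to 599 CPM, with Tshb at 0. Oligodendrocyte lineage and neural crest markers were at 36.6 to 127 CPM against 57.9 to 115 CPM, and ependymal and choroid markers at 4.26 to 211 CPM against 4.27 to 904 CPM. Fibroblast markers were at 6.13 to 4030 CPM against 35.0 to 484 CPM, with 216 of the 356 *Igf2* UMIs of the class in 1 cell, and at least 3 of the 6 were found in 14 of 401 Tfap2b-positive neurons (3.49%) and in 116 of 4823 others (2.41%). The part of these cells in the differences was not tested. Cells scored in the top 6% of their library for doublets made up 7.73% of the class and 7.38% of the other *Eed-cKO* neurons.

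The same genes were compared between genotypes in the neurons outside the class, 4823 of *Eed-cKO* and 5888 of control embryos. These values share their *Eed-cKO* cells with the comparison above and are given beside it. Of 12179 genes 1035 were higher (8.50%) and 890 lower (7.31%) in *Eed-cKO*, with a median of 0.01. The gene filter asked for a median over all embryos, of which 9 were *Eed-cKO* and 6 control. A gene near 0 in control could thus pass, whereas a gene near 0 in *Eed-cKO* could not, which favours rises in these counts. Hox genes, like *Tfap2a*, *Pitx1*, *Lamp5* and *Pax2* below, could pass only through their level in *Eed-cKO*. Their values here are thus a description, and no count of Hox genes is given. *Hoxc10*, *Hoxc13* and *Hoxd10* had 0 UMIs in control, which put *Hoxc10* at least 683-fold and *Hoxc13* at least 535-fold higher against a floor of 3 counts over the group. *Lamp5* was at 19.1, 36.3 and 51.9 CPM in *Eed-cKO* and at 1.56, 1.95 and 2.66 CPM in control (4.28 ± 0.19), *Tal1* at 78.8, 89.0 and 125 CPM against 2.81, 3.67 and 8.92 CPM (4.29 ± 0.20), and *Tfap2a* at 10.6, 14.4 and 17.5 CPM against 0, 0.251 and 0.892 CPM (5.48 ± 0.30). None of them overlapped between genotypes. *Gata3* (2.29 ± 0.36, adjusted p = 6.88e-04), *Lmo1* (1.39 ± 0.12), *Pax2* (4.27 ± 0.41) and *Pitx1* (0 UMIs in control, at least 58.6-fold) were higher as well, whereas *Rpp25* did not pass the test (0.34, adjusted p = 0.186).

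The genes that were low in Tfap2b-positive neurons had other values. *Nkx2-1* was higher in *Eed-cKO* than in control neurons outside the class (0.55 ± 0.16, adjusted p = 0.0289, a call lost without 1 of several embryos of either genotype), whereas *Foxb1* (0.09, adjusted p = 0.854), *Cited1* (0.39, adjusted p = 0.271), *Trh* (0.27, adjusted p = 0.471) and *Nts* (−0.24, adjusted p = 0.613) did not pass the test. *Slc17a6* (0.02, adjusted p = 0.907) and *Slc32a1* (−0.09, adjusted p = 0.516) did not pass either. The largest falls without overlap between genotypes were those of Myo7a (−3.89), *Cdh9* (−1.58), Npbwr1 (−1.57), *Oprk1* (−1.56) and *Fign* (−1.45). The largest rises, of *Hoxc10*, *Hoxc13*, *Hoxa9*, *Vax2* and *Hoxd10*, are a description, since the Hox genes passed the gene filter only through *Eed-cKO*.

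Fast transmitters were read from the vesicular transporters of glutamate (*Slc17a6*) and of GABA and glycine (*Slc32a1*), which mark different neurons in most of the brain. Of the 401 Tfap2b-positive *Eed-cKO* neurons 109 had UMIs of *Slc17a6* without *Slc32a1*, 50 of *Slc32a1* without *Slc17a6*, 187 of both (46.6%, exact 95% interval 41.7% to 51.7%) and 55 of neither. Of the 4823 other neurons 922 had both (19.1%), as did 307 of 5888 other control neurons (5.21%). In the 437 non-neuronal *Eed-cKO* cells it was 2 (0.458%).

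Since the median depth was 5442 UMIs in Tfap2b-positive and 4799 in other *Eed-cKO* neurons, each cell was thinned to 2000 UMIs, which kept 380 Tfap2b-positive and 4327 other neurons. Both transporters were found in 11.9%, 17.9% and 41.7% of Tfap2b-positive neurons in the lowest, median and highest embryo and in 1.77%, 6.46% and 9.06% of other neurons. The ranges did not overlap, the mean difference was 14.2 percentage points ± 9.10 (SD, n = 9), and it was positive in 9 of 9 embryos (exact two-sided permutation test, p = 0.00391, the smallest that 9 pairs can give, adjusted p = 0.0156 over 4 shares). *Slc32a1* was found in 17%, 35.7% and 58.3% against 11.5%, 17.6% and 18.8%, higher by 20.7 ± 13 points and in 8 of 9 embryos (exact permutation p = 0.00781, adjusted p = 0.0156). *Slc17a6* was found in 31.4%, 55.6% and 67.7% against 37.2%, 41.8% and 51.9%, higher by 12.5 ± 10.6 points and in 8 of 9 embryos (exact permutation p = 0.0117, adjusted p = 0.0156). *Slc6a5*, the glycine transporter of glycinergic neurons, was found in 0% of Tfap2b-positive neurons and a mean of 0.0575% of others (exact permutation p = 0.5). The background in thinned non-neuronal *Eed-cKO* cells was 3.45% for *Slc17a6*, 0.575% for *Slc32a1* and 0.287% for both.

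**Figure D5:**
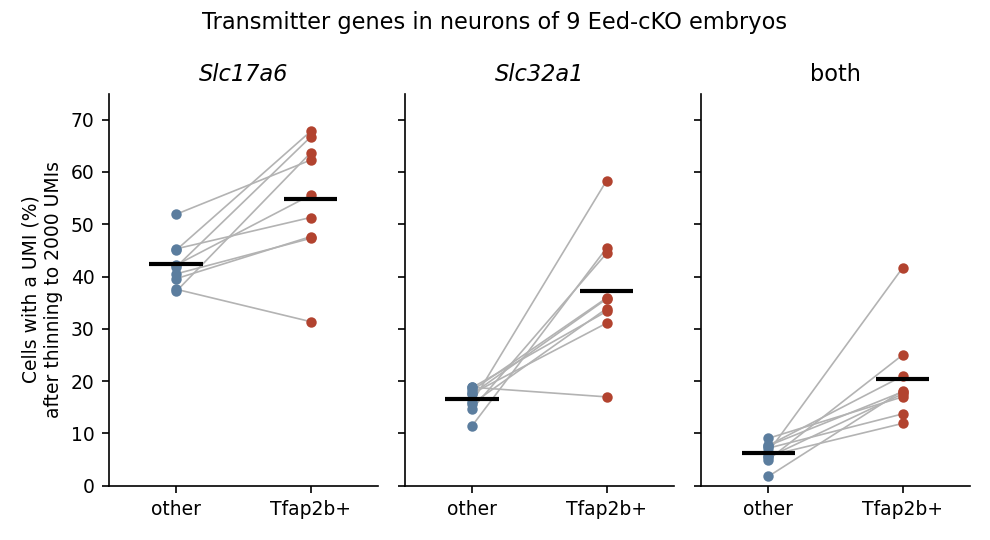
Percentage of neurons with a UMI of Slc17a6, of Slc32a1 and of both after thinning each cell to 2000 UMIs (vertical axis), in other and Tfap2b-positive neurons of 9 Eed-cKO embryos (points joined within an embryo, bars for means). The share with both lies at 1.77% to 9.06% in other neurons and at 11.9% to 41.7% in Tfap2b-positive neurons.

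Unthinned, the mean share with both was 47.3% ± 9.51 in Tfap2b-positive and 18.7% ± 5.23 in other neurons. When 2 UMIs of a transporter were asked in thinned cells, the difference in the share with both was 0.439 points (exact permutation, adjusted p = 1) and that in *Slc32a1* 3.54 points (adjusted p = 0.156), so neither call was kept, while *Slc17a6* kept its call (6.72 points, adjusted p = 0.0469). On summed counts *Slc32a1* was at 149, 220 and 328 CPM against 97.4, 108 and 115 CPM without overlap (log2 fold change 0.99 ± 0.10, edgeR's quasi-likelihood test, adjusted p = 1.07e-20). The GABA-synthesizing enzymes *Gad1* (0.42 ± 0.06) and *Gad2* (0.40 ± 0.10) were higher by less, so that 3 of 3 tested GABA and glycine genes rose (median 0.42). When both classes were limited to cells with a UMI of *Slc32a1*, *Gad1* turned to −0.26 (adjusted p = 0.0217) and *Gad2* to −0.26. *Slc17a6* was at 343, 455 and 617 CPM against 286, 374 and 516 CPM (0.18 ± 0.07, adjusted p = 0.0902), and 0 of 3 glutamate genes passed in edgeR's quasi-likelihood test (median 0.07).

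The Tfap2b-positive neurons also varied among themselves. In the 5 embryos with at least 5 cells of each kind, 40 neurons with *Slc32a1* and no *Slc17a6* were compared with 68 that had *Slc17a6* and no *Slc32a1*. Of 7455 genes 24 differed (0.322%), 11 higher and 13 lower in the *Slc32a1* neurons. With DESeq2's size factors it was 17 higher and 12 lower, and the median over all genes was −0.06 in place of −0.18. Nfib, a nuclear factor of differentiating neurons and glia, was at 1404, 1523 and 3419 CPM in the lowest, median and highest embryo of the *Slc32a1* neurons and at 433, 499 and 683 CPM in the *Slc17a6* neurons, without overlap (1.87 ± 0.20, adjusted p = 7.34e-17). *Lmo1* was at 448, 508 and 695 CPM against 63.8, 209 and 305 CPM (1.53 ± 0.29, adjusted p = 1.53e-04) and *Sox11*, a factor of immature neurons, at 2868, 3581 and 5339 CPM against 1385, 2022 and 2071 CPM (1.19 ± 0.17, adjusted p = 7.26e-09), again without overlap. *Hoxa5* (2.40), *Tgfb2* (2.40), *St18* (1.80) and *Sox4* (0.98) were also higher.

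The cell adhesion genes *Cntn1* (−2.33) and *Cntnap2* (−2.11), the autophagy gene *Wdfy3* (−2.02), the phosphofructokinase gene Pfkp (−1.52) and the heat shock gene *Hspa1b* (2 UMIs against 53) were lower in *Slc32a1* than in *Slc17a6* neurons in all 5 embryos. Somatostatin (*Sst*, −1.92) was lower in 4 of 5, Cartpt (2.95) rested on 1 embryo, and *Dcn*, a fibroblast marker, had 0 UMIs against 32. *Lamp5* (−0.02), *Hoxc10* (0.69, adjusted p = 0.881), *Gata3* (0.14) and *Tal1* (0.47) did not pass the test between these kinds. With so few cells a missing call does not show equal levels. In data simulated for this fit, 38% of changes of log2 1 and 91% of changes of log2 2 were called. Nfib, *Lmo1* and *Sox11* kept their calls without embryo F0588_E7 and in DESeq2, where 7 and 6 genes were called in all. *Hoxa5*, *Tgfb2*, *St18*, *Sox4*, *Cntn1*, *Cntnap2*, *Wdfy3*, Pfkp, *Hspa1b*, *Sst* and *Dcn* lost theirs when 1 or another embryo was left out, each of them without F0588_E7.

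The genes whose levels followed *Tfap2b* most closely over the 5224 *Eed-cKO* neurons, by Pearson's r of log2(CPM + 1) in single cells, were *Lamp5* (0.30), *Hoxc10* (0.28), *Hoxc13* (0.27), *Lmo1* (0.26), *Gata3* (0.26), *Meis2* (0.23), *Tal1* (0.23), *Zic1* (0.23), *Hoxb13* (0.22) and *Hoxd10* (0.21). These correlations are weak, come from sparse counts of cells that share libraries, and are no finding. Within the 401 Tfap2b-positive neurons, *Gata3* had a UMI in 94 of the 196 cells with *Lamp5* (48.0%) and in 29.8% of those without. *Hoxc10* was found in 67.7% of cells with *Gata3* and 52.0% of those without, *Slc17a6* in 78.9% of cells with *Slc32a1* and 66.5% of those without, and *Lhx8* in 18.9% of cells with *Lamp5* and 9.8% of those without. *Tal1* was found in 63.2% of cells with *Gata3* and 63.0% of those without, and *Pax2* in 7.7% of cells with *Lamp5* and 9.8% of those without. These shares were pooled over embryos and are not corrected for depth.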

How the data were processed

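The authors' deposited file holds UMI counts of genes by cells, without normalization, from 48 SureCell 3′ libraries of dissected, papain-treated hypothalamus. Reads had been aligned to mm10, and the submitters' processing notes name STAR 2.5.2b and SAMtools 1.3. The shallowest cell held 601 UMIs. Whether reads were counted by strand is not given in the sources used here. Counts were summed per embryo and class of cells. The sums were compared by edgeR's quasi-likelihood test (version 4.0.16, R 4.3.3) with TMM scaling, and p-values were adjusted by Benjamini and Hochberg's method with a threshold of 0.05. Genes needed 15 UMIs in total, a maximum of 2 and a median log-CPM of 1.5, and the genes of the rule were left out. Fits within *Eed-cKO* were paired by embryo, because each animal gave a sum to either class. Transmitter shares were tested by exact permutation of the 9 pairs, with all sign flips computed in NumPy 2.4.6. Exact intervals were computed with SciPy 1.17.1. Doublets were scored with Scrublet in scanpy 1.11.5. Exon overlaps come from GENCODE M21.

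The members and gene lists were chosen with earlier results of these data known. Some genes are not reported here and were left out of the list counts. The named genes were the markers, the called members of 25 lists, genes named in the study's text, and the 12 largest rises and falls with the same sign in all embryos (5 in the other fits). Embryos are the replicates, and intervals and floors cover counting error only. The scripts of the fits were tested on simulated data. Alternatives covered normalization, gene filter, tool (DESeq2 1.42.0, limma 3.58.1), replicate, block, depth, doublets, transmitter class, threshold and each embryo left out.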

Additional observations from a re-analysis of the deposited data

Results flagged for a closer look

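In 45 groups of 9 or 6 embryos checked for a value far from the rest, 8 such values were found. At 1 in 20, independent groups would give about 2.25. These groups are not independent, and a sum of few cells without a UMI can make such a gap. No excess over chance is therefore read from the count. The share of neurons with both transporters was 35.2 points higher in Tfap2b-positive than in other neurons in embryo F502_E9, where the next embryo reached 20.02 and the lowest 6.19. The share itself was 41.7% in the Tfap2b-positive neurons of that embryo and at most 25% in the others. In the same embryo, which had 15 Tfap2b-positive neurons, *Dmbx1*, *Tfap2a* and *Lhx9* had 0 UMIs in the class. Their differences on the log2(CPM + 1) scale, Tfap2b-positive minus other neurons, were −4.53 for *Dmbx1*, −4.25 for *Tfap2a* and −4.33 for *Lhx9*, and the next lowest embryos were at 0.31, 1.00 and −0.29. In embryo F0582_E2, with 11 cells of the class, *Msx1* differed by 5.40, with the next embryo at 2.68. In F0588_E7 *Cpne9* differed by −0.19, with the next at −2.28, on 1 UMI. In F502_E6 the *Slc6a5* share differed by −0.348 points, from 0% in the class. Without F502_E9 the calls of the shares, *Tfap2a*, *Dmbx1* and *Lhx9* were kept, and without F0582_E2 that of *Msx1* was kept. *Cpne9* lost its call without either.

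Outside the neurons, 17 of 1711 *Eed-cKO* cells that failed the neuron rule held at least 2 UMIs of *Tfap2b* (0.994%), above the 2 of 1288 in control (0.155%). These cells enter no comparison.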

How the results depend on the processing

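Left out in turn, each embryo moved the difference between genotypes in the share of Tfap2b-positive neurons from 7.64 points to 6.83 to 8.13, and with 1 UMI of *Tfap2b* as the rule it was 11.9. The transmitter differences ran over 10.7 to 14.8 points for *Slc17a6*, 18 to 23.5 for *Slc32a1*, 11.6 to 15.2 for both and −0.0647 to −0.0212 for *Slc6a5*. The difference in the share with both was 28.6 points unthinned and 4.36 thinned to 1000 UMIs. At 2 UMIs of a transporter *Slc32a1* (3.54) and both (0.439) lost their calls.

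Genes called between Tfap2b-positive and other neurons numbered 695, and 512 to 713 without single embryos. They were 312 in limma-voom with TREAT (248 higher), 411 with no replicate block (234 higher), 1652 with libraries as replicates (261 higher), 444 in thinned cells (150 higher), 245 in cells with *Slc32a1* (99 higher), 110 in cells with both transporters (35 higher) and 64 for neurons with exactly 2 UMIs (28 higher). The share of calls that were higher was 48.5%, 62.3% in DESeq2 and 37.9% without the gene filter. Between genotypes the 1925 calls became 605 in limma-voom with TREAT and 4295 with libraries, and 1372 to 2704 without single embryos. Between the transmitter kinds the 24 calls became 6 in DESeq2 and 7 to 24 without single embryos, 7 without F0588_E7, and the replicate block changed no other count by over 1.5 times (30 without it).

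Signs turned for some genes. *Ttr*, of which 79.7% of the UMIs of other neurons lay in 1 cell, turned in DESeq2 (0.15), lay over −1.96 to 0.44 with single embryos left out, above 0 without F502_E6, and turned without doublets (0.50). In cells with *Slc32a1* it was *Gad1* (−0.26), *Gad2* (−0.26), *Sall3* (0.50), *Barhl1* (0.047), *Sim1* (0.44), *Reln* (−0.048), *Neurod1* (0.42) and *Slc1a3* (0.075). In cells with both it was *Gad1* (−0.26), *Gad2* (−0.15), *Slc32a1* (−0.050), *Sall3* (0.26), *Lhx9* (−0.016), *Hoxa5* (−0.27), *Hoxd9* (−0.093), *Sim1* (0.16), *Reln* (−0.23), *Cdkn1a* (−0.11), *Neurod1* (0.34) and *Slc1a3* (0.10). With exactly 2 UMIs it was *Dmbx1* (−1.69), *Lhx9* (−0.010), *Hoxa5* (−0.18), *Sp9* (−0.42) and *Neurod1* (0.024). The cause was not tested.

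Of the other repeats of named genes, 1904 kept direction and call, 434 lost the call and 8 gained it in the class against other neurons, 2328, 46 and 49 between genotypes, and 161 kept and 56 lost it between the transmitter kinds. *Lamp5*, *Lmo1*, *Gata3*, *Hoxc13*, *Hoxc10*, *Tal1*, *Cited1*, *Nts*, *Nkx2-1* and *Tfap2a* kept both under all 23 alternatives. For the markers *Lamp5* and *Hoxc10*, proposed with values known, this is a description. Comparisons that need 5 Tfap2b-positive neurons in a control embryo were left out, since control embryos held 1 or 2. Depth limits the genes with few UMIs in the class.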
